A study of Homo sapiens with 9 samples.

Results

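Intermediate filament genes encode the rod-shaped proteins that assemble into keratin filaments, vimentin-type filaments, neurofilaments and the nuclear lamina. The genes described here were taken by symbol from the deposited table, as every keratin symbol made of KRT, a number and at most 1 letter from A to C, together with VIM, DES, NES, NEFL, NEFM, NEFH, INA, PRPH, SYNM, LMNA, LMNB1 and LMNB2. The rule found 67 of the 26475 symbols, of which 55 are keratins (29 type I and 26 type II, 17 of them hair keratins) and 12 are other intermediate filament genes. Expression was profiled in A375, an established human melanoma cell line with mutant BRAF, after 24 h with the vehicle DMSO or with TP-472 at 5 µM or at 10 µM. TP-472 is a small molecule that binds the bromodomains of BRD9 and BRD7, subunits of SWI/SNF chromatin remodelling complexes. Each group had 3 libraries, described as biological replicates, and the stock of TP-472 was made in DMSO. Whether the replicates came from separate cultures is not stated, so p-values measure the spread between these libraries, and all groups share 1 cell line.

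Keratin filaments are built from pairs of a type I and a type II keratin, and epithelial cells choose their pairs by tissue and by state: KRT8 with KRT18 in simple epithelia, KRT5 with KRT14 in the basal layer of stratified epithelia, KRT6 with KRT16 or KRT17 in wounded or rapidly dividing epidermis. Vimentin is the main cytoplasmic filament of mesenchymal cells and of melanoma cells, nestin and synemin join it as large partner subunits, and neurofilament proteins are typical of neurons. Lamins line the inside of the nuclear envelope, where B-type lamins stay attached to the membrane and A-type lamins are partly soluble.

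The libraries held 42483091 to 51298130 expected counts, the estimate by RSEM of the reads from each gene, of which 8.20% to 19.9% fell on genes of ribosomal RNA. The library of 10 µM replicate 1 stood apart. Across genes, its deviation from the mean of its group was related to the length and base composition of transcripts, which took up 11.0% of the variance. The same figure was 5.02% and 5.26% in the other 10 µM libraries, whose group mean includes it, and at most 0.475% elsewhere. For many members of the family whose values rest on it, the value without it is given as well. Of the melanocyte markers SOX10 was at 404 to 426 CPM (counts per 1e+06 counts of the library, scaled by TMM) in the DMSO libraries and MITF at 29.9 to 33.3 CPM, whereas the pigment genes PMEL, TYRP1 and MLANA were at means of 1.48, 0.332 and 0.173 CPM and TYR and DCT at 0. Of 17 epithelial markers, CLDN4, FLG, SFN and GRHL1 were at DMSO means of 36.9, 34.4, 8.45 and 1.44 CPM and the others below 1 CPM, with LOR and GRHL2 at 0 in every library, CDH1 at 0 in all DMSO and 5 µM libraries and TP63 and EPCAM at means below 0.2 CPM in every group. Summed over 6 stromal and blood cell markers, the level was 8.69 to 9.73 CPM with DMSO, 7.93 to 8.75 CPM at 5 µM and 5.58 to 7.17 CPM at 10 µM.

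VIM, which encodes vimentin, was the most abundant of the 67 genes. Its DMSO mean of 3720 ± 71.7 CPM (SD, n = 3, as for all means here) made 49.4% of the CPM of all of them and ranked 8 among all symbols. Per kilobase of its principal transcript VIM stood at 1991 ± 38.4 CPM, followed by KRT18 at 417 ± 4.41, LMNA at 408 ± 2.93, KRT81 at 247 ± 8.51, KRT80 at 86.7 ± 1.51 and NES at 59.2 ± 2.52. LMNB1, LMNB2 and KRT8 followed at 49.5 ± 0.314, 47.2 ± 1.10 and 44.8 ± 1.00 CPM per kilobase, and then KRT10, KRT7, NEFL and SYNM between 20.9 and 10.6. KRT18 and LMNA, and LMNB1, LMNB2 and KRT8, lie close enough that the choice of transcript length could set their order, which was not tested. Among the keratins, 11 reached a mean of 1 CPM in DMSO, and KRT18, KRT81, KRT80 and KRT8 together gave 92.7% ± 0.353 of all keratin CPM. The type I keratins summed to 448 ± 5.46 CPM per kilobase in DMSO and the type II keratins to 405 ± 10.4. At 5 µM the order of these sums was the opposite, 405 ± 8.61 for type I and 466 ± 13.3 for type II, and at 10 µM they were 460 ± 98.0 and 481 ± 115, with a spread that came from replicate 1 (573 for type I and 613 for type II, against at most 410 and 427 in the other 10 µM libraries).

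**Figure D1:**
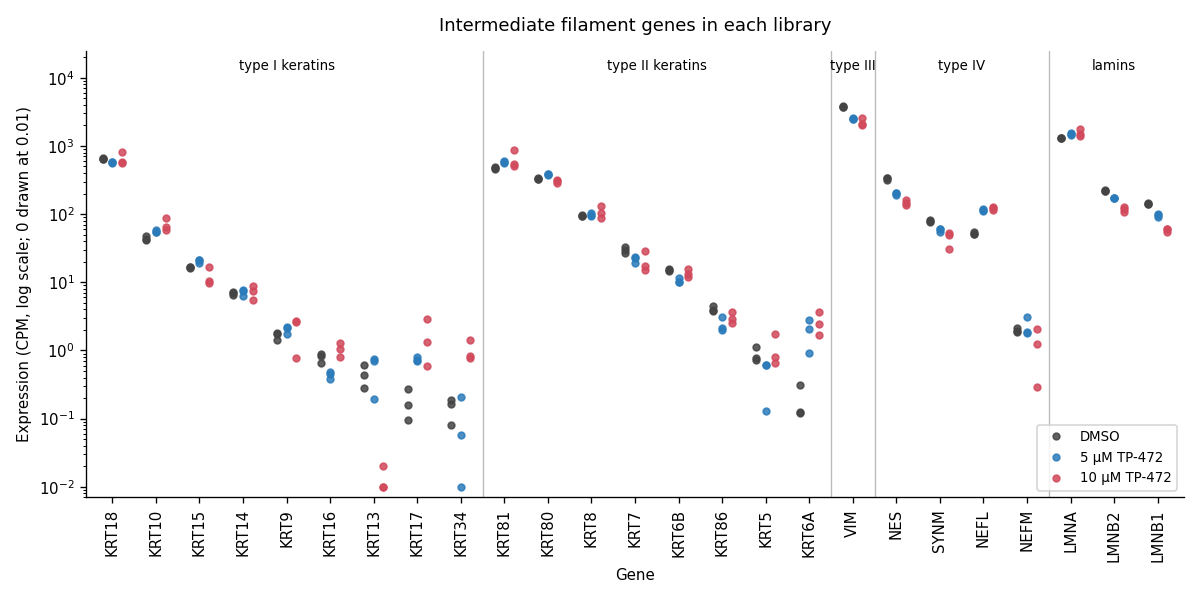
Expression of the 25 genes that reached 1 CPM as the mean of some group or had a call, in CPM on a log axis, with 1 dot per library (0 drawn at 0.01). VIM and LMNA stay above 1000 CPM in all 9 libraries, whereas KRT13, KRT17, KRT34 and KRT6A lie below 1 CPM in all DMSO libraries.

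Of the 67 genes, 32 had enough counts to be tested, namely 22 keratins and 10 others. A gene was called at an adjusted p under 0.05 and a fold change of at least 1.5, and edgeR adjusted p below means the p of the quasi-likelihood test of edgeR after adjustment by Benjamini and Hochberg over all 16417 genes tested. At 5 µM TP-472, NEFL and KRT6A rose and NES fell, so that 2 of the 32 were called up and 1 down, against 2.14% and 2.72% of all genes tested. In either direction these are 9.38% of the 32 and 4.87% of all genes. At 10 µM TP-472, NEFL, KRT6A, KRT17, KRT10 and KRT34 rose and LMNB1, LMNB2, NES, SYNM, VIM and KRT13 fell. These are 5 up and 6 down of 32, or 34.4% in either direction, where 8.57% of all genes tested were called up, 10.5% down and 19.1% in either direction. From 5 µM to 10 µM, KRT34 rose and LMNB1, KRT13 and KRT15 fell, against 1.42% of all genes called up and 2.59% called down. In either direction these are 12.5% of the 32 and 4.01% of all genes. By the adjusted p alone, with no fold limit, 2 of the 32 were higher and 5 lower at 5 µM (4.40% and 5.81% of all genes), 6 higher and 6 lower at 10 µM (16.4% and 18.0%), and 1 higher and 6 lower from 5 µM to 10 µM (2.87% and 5.53%). The low-count filter looks at the counts of all 3 groups. KRT34, KRT17 and KRT6A, near its limit, passed it through the libraries where they are high, which for KRT34 were those of 10 µM. KRT13, nearly absent at 10 µM, likewise passed through its DMSO and 5 µM libraries. The counts and shares of called genes above include these genes. The 32 genes are not all of the family. At 10 µM the median of the 32 on the log2 scale was 0.03, and that of every gene tested was 0.01. At 10 µM the keratins gave 4 called up and 1 down of 22 tested, and the lamins, type III and type IV genes 1 up and 5 down of 10, a difference that was not tested. All comparisons with DMSO share the same 3 DMSO libraries. The groups also share 1 estimate of the spread, so p-values at 5 µM depend on 10 µM replicate 1 as well. By the edgeR adjusted p alone, 722 of all genes were higher and 954 lower at 5 µM. Without that library these were 2770 and 2951.

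**Figure D2:**
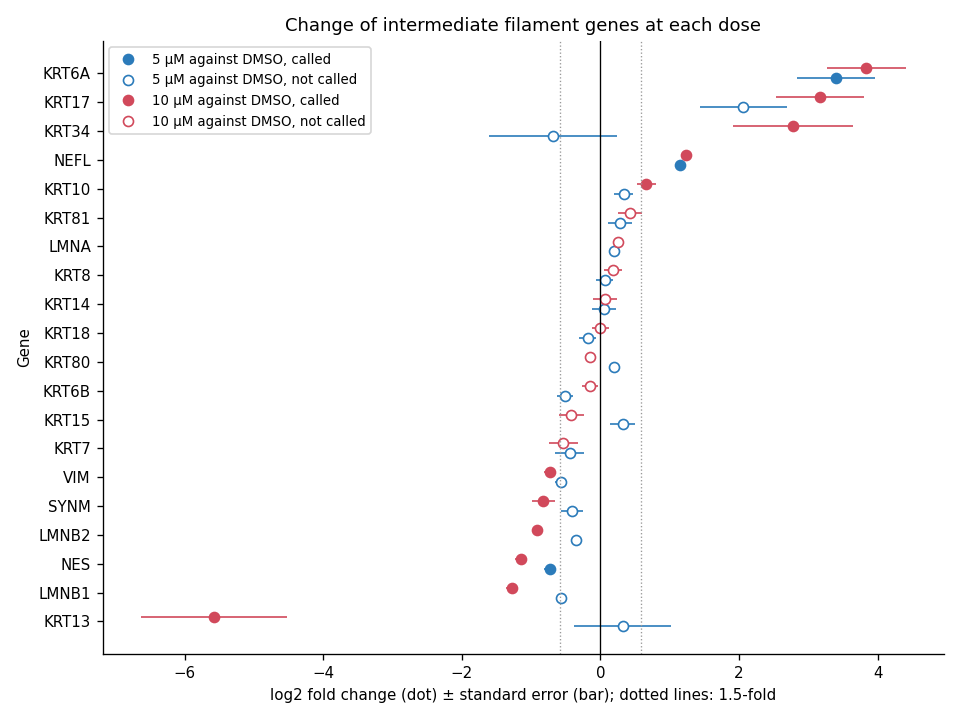
Log2 fold change at 5 µM (blue) and 10 µM (red) against DMSO for the 20 genes that reached 5 CPM as a group mean or had a call, with bars of 1 standard error and filled dots for called changes. KRT6A and NEFL are filled on the right at both doses and NES on the left at both doses, and KRT13 at 10 µM lies farthest left at -5.58.

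Vimentin expression was 3698, 3662 and 3800 CPM in the DMSO libraries (replicates 1, 2 and 3, in that order here and below), 2514, 2553 and 2460 CPM at 5 µM and 2569, 2120 and 2033 CPM at 10 µM. Every TP-472 library lay below every DMSO library, and the 2 doses overlapped only through 10 µM replicate 1. The log2 fold change was -0.57 at 5 µM (SE 0.08, edgeR adjusted p = 0.0025), just short of the 1.5-fold limit (called with length and GC offsets at -0.59), and -0.73 at 10 µM (SE 0.08, edgeR adjusted p = 0.000142), or -0.84 without 10 µM replicate 1. From 5 µM to 10 µM VIM had a value of -0.16 (SE 0.08, edgeR adjusted p = 0.26). Without 10 µM replicate 1 this step was -0.28 (SE 0.03, edgeR adjusted p = 2.19e-06), short of the fold limit. The share of VIM in the CPM of all 67 genes went from 49.4% ± 0.627 in DMSO to 39.1% ± 0.278 at 5 µM and 36.6% ± 0.708 at 10 µM. In these bulk libraries, fewer cells of a kind and less RNA per cell cannot be told apart. An antisense transcript, VIM-AS1, covers 12.4% of the exonic bases of VIM on the other strand (chromosome 10, 17228259 to 17237593, GRCh38, GENCODE release 29), and the sources used here do not say whether reads were counted by strand. The other type III genes, desmin (DES) of muscle and peripherin (PRPH) of peripheral neurons, had means of at most 0.394 CPM and passed no test. PRPH had a log2 fold change of -2.76 at 10 µM (edgeR adjusted p = 0.0851), and DES one of -0.89 (edgeR adjusted p = 0.268).

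Nestin (NES), a large filament protein of neural progenitors that is also made by melanoma cells and assembles only together with vimentin or similar proteins, fell at both doses. Its libraries read 335, 340 and 313 CPM in DMSO, 201, 205 and 189 CPM at 5 µM and 135, 148 and 163 CPM at 10 µM, so the 3 groups did not overlap. NES fell to 0.603 times its DMSO level at 5 µM (log2 fold change -0.73, SE 0.08, edgeR adjusted p = 0.000605) and to 0.452 times at 10 µM (-1.15, SE 0.08, edgeR adjusted p = 7.87e-06). The further step from 5 µM to 10 µM, -0.42 (SE 0.08, edgeR adjusted p = 0.0151), passed the adjusted p but not the fold limit, and with length and GC offsets it was -0.20 (edgeR adjusted p = 0.0645). Synemin (SYNM), which links vimentin and desmin filaments to other structures of the cell, was at 77.9, 81.7 and 75.6 CPM in DMSO, 55.5, 60.7 and 60.6 CPM at 5 µM and 30.95, 53.0 and 48.7 CPM at 10 µM. Again the groups did not overlap, and the lowest value was that of 10 µM replicate 1. SYNM had a log2 fold change of -0.41 at 5 µM (SE 0.16, edgeR adjusted p = 0.153) and fell at 10 µM by 0.83 on the log2 scale (SE 0.17, edgeR adjusted p = 0.00382), or by 0.63 without 10 µM replicate 1 (SE 0.06, edgeR adjusted p = 5.37e-07). Without that library the 5 µM value was -0.41 (SE 0.05, edgeR adjusted p = 2.6e-05), still short of the fold limit. An antisense gene not in the deposited table overlaps 25.9% of the exonic bases of SYNM.

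The neurofilament light chain gene NEFL went the other way from NES and SYNM, the other tested type IV genes with over 5 CPM. It was at 50.97, 51.2 and 54.0 CPM in DMSO, 110, 118 and 116 CPM at 5 µM and 116, 124 and 125 CPM at 10 µM. NEFL rose to 2.21 times its DMSO level at 5 µM (log2 fold change 1.14, SE 0.07, edgeR adjusted p = 1.91e-05) and to 2.34 times at 10 µM (1.23, SE 0.07, edgeR adjusted p = 1.67e-06). The TP-472 libraries of the doses overlapped, and the difference of 0.09 between them (SE 0.07, edgeR adjusted p = 0.472) did not pass the test. The medium chain gene NEFM, whose protein co-assembles with the light chain in axons, was at 1.95, 2.12 and 1.84 CPM in DMSO, 1.86, 3.10 and 1.81 CPM at 5 µM and 0.289, 2.096 and 1.26 CPM at 10 µM, with overlapping groups and no call. Its log2 fold change at 10 µM was -0.69 (SE 0.54), or -0.23 without 10 µM replicate 1 (SE 0.32). Antisense genes not in the deposited table overlap 11.3% of the exonic bases of NEFL and 38.9% of those of NEFM. The heavy chain gene NEFH and the alpha-internexin gene INA were too low to be tested, with totals of 10, 25 and 43 and of 0, 6 and 2 counts over the 3 libraries of DMSO, 5 µM and 10 µM.

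**Figure D3:**
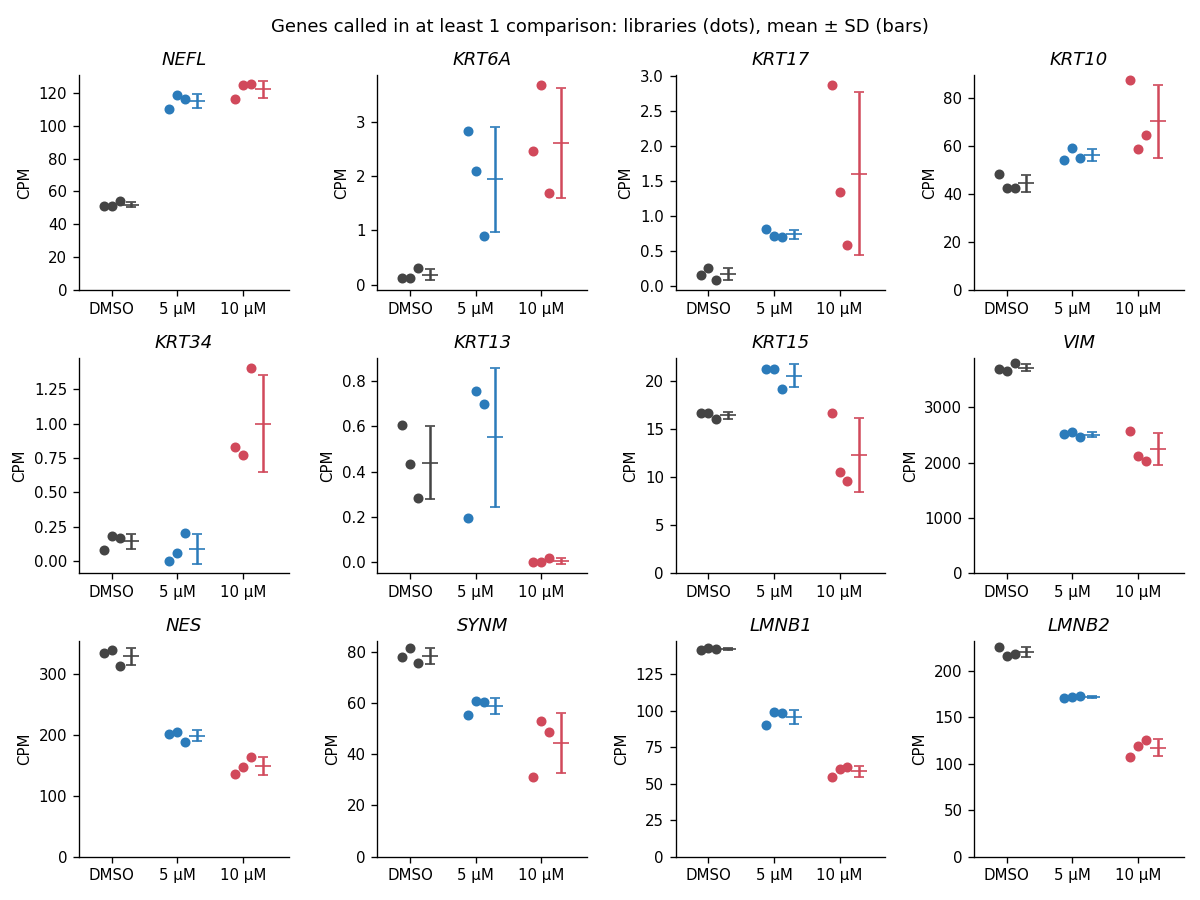
CPM on a linear axis in each library (dots) with the mean and SD of the group (bars) for the 12 genes called in at least 1 comparison. VIM, NES, SYNM, LMNB1 and LMNB2 step down from DMSO to 5 µM to 10 µM in their means, NEFL steps up at 5 µM and stays there, and the 10 µM dots of KRT17 run from 0.591 to 2.87 CPM.

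The B-type lamin genes fell and the A-type gene did not. LMNB1 (chromosome 5) was at 141, 143 and 142 CPM in DMSO, 89.97, 99.1 and 98.3 CPM at 5 µM and 54.3, 59.9 and 61.2 CPM at 10 µM. The 3 groups were well apart, with DMSO replicates within 2 CPM of each other. LMNB1 had a log2 fold change of -0.57 at 5 µM (SE 0.07, edgeR adjusted p = 0.0013), short of the fold limit (called without 5 µM replicate 2 at -0.60 or without replicate 3 at -0.59), fell to 0.411 times its DMSO level at 10 µM (-1.28, SE 0.08, edgeR adjusted p = 1.96e-06), and fell from 5 µM to 10 µM by 0.71 on the log2 scale (SE 0.07, edgeR adjusted p = 0.000518). LMNB2, the second B-type gene, was at 226, 217 and 218 CPM in DMSO, 171, 172 and 173 CPM at 5 µM and 107, 119 and 126 CPM at 10 µM, again without overlap. Its log2 fold change was -0.36 at 5 µM (SE 0.07, edgeR adjusted p = 0.0131) and -0.91 at 10 µM (SE 0.07, edgeR adjusted p = 1.45e-05), only the second of which passed the fold limit. LMNA, which encodes lamins A and C, was at 1301, 1294 and 1313 CPM in DMSO, 1491, 1556 and 1448 CPM at 5 µM and 1777, 1410 and 1489 CPM at 10 µM. All TP-472 libraries were above all DMSO libraries, and at 10 µM the log2 fold change of 0.26 (SE 0.08, edgeR adjusted p = 0.0389) passed the adjusted p but not the fold limit, as did the value of 0.15 without 10 µM replicate 1. At 5 µM LMNA had a value of 0.20 (SE 0.08, edgeR adjusted p = 0.175), and of 0.20 without 10 µM replicate 1 (SE 0.03, edgeR adjusted p = 6.86e-05), short of the fold limit. As a share of the CPM of the 3 lamin genes, LMNB1 went from 8.55% ± 0.0982 in DMSO to 5.43% ± 0.292 at 5 µM and 3.41% ± 0.530 at 10 µM, while LMNA went from 78.2% ± 0.248 to 84.8% ± 0.531 and 89.8% ± 1.66.

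Proteins of the nuclear envelope that bind lamins, link them to the cytoskeleton or work with such proteins were read from a list of 14 genes, all tested. At 10 µM 0 rose and 5 fell (SUN2, TMPO, NRM, LBR and SYNE2), where 8.57% of all genes tested were called up and 10.5% down. The median of the 14 was -0.32 on the log2 scale, or -0.20 without 10 µM replicate 1, and that of every gene tested was 0.01. SUN2, which ties lamins to the cytoskeleton across the nuclear envelope, was at 94.3, 92.4 and 88.6 CPM in DMSO and 41.3, 43.1 and 42.7 CPM at 10 µM (log2 fold change -1.11, SE 0.07, edgeR adjusted p = 2.31e-06). TMPO, the gene of the lamin-binding LAP2 proteins, changed by -1.08 (SE 0.10, edgeR adjusted p = 5e-05) and NRM, which encodes the membrane protein nurim, by -1.54 (SE 0.15, edgeR adjusted p = 6.14e-05). SYNE2 had a value of -1.35 (-0.90 without 10 µM replicate 1) and kept its call in 2 of the 9 fits that leave out 1 library. Emerin (EMD), LEMD2 and BANF1 had values of 0.03, 0.06 and 0.11 and were not called. Of the 5 tested genes for the processing of prelamin 0 were called at 10 µM (median -0.07, or -0.19 without 10 µM replicate 1), although ZMPSTE24, the protease that matures prelamin A, passed the adjusted p at 0.39 (SE 0.09, edgeR adjusted p = 0.00835). The next smallest p-values were those of ICMT (-0.16) and FNTB (-1.27). Most of the proliferation genes fell, as the B-type lamins did. Of 13 such genes 0 were called up and 12 down at 10 µM, with a median of -1.06 (-1.14 without 10 µM replicate 1) and summed levels of 2035 to 2046 CPM with DMSO, 1425 to 1446 CPM at 5 µM and 987 to 996 CPM at 10 µM. The remaining gene, PCNA, went the other way with a value of 0.43, which passed the adjusted p but not the fold limit. The 3 smallest p-values of the proliferation genes belonged to TOP2A (-1.81), PLK1 (-1.25) and MCM5 (-1.20). The part of proliferation in the fall of LMNB1 and LMNB2 was not tested.

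The 4 most abundant keratins of A375 cells had no call in any comparison. KRT18, the type I keratin of simple epithelia, was at 652, 658 and 645 CPM in DMSO, 560, 584 and 577 CPM at 5 µM and 808, 561 and 579 CPM at 10 µM. Its type II partner KRT8 was at 97.8, 94.1 and 94.0 CPM in DMSO, 98.4, 104 and 95.2 CPM at 5 µM and 133, 103 and 88.1 CPM at 10 µM. In both genes 10 µM replicate 1 was the highest of all libraries. The log2 fold changes at 10 µM were -0.0045 for KRT18 (SE 0.12, edgeR adjusted p = 0.983) and 0.18 for KRT8 (SE 0.13, edgeR adjusted p = 0.311), and at 5 µM they were -0.18 and 0.06 (edgeR adjusted p = 0.419 and 0.842). Without 10 µM replicate 1 the value of KRT18 at 10 µM was -0.19 (SE 0.03, edgeR adjusted p = 9.12e-05), still short of the fold limit, and that of KRT8 was 0.0031 (SE 0.06). At 5 µM the value of KRT18 was then -0.18 (SE 0.03, edgeR adjusted p = 0.000105), also short of the fold limit, and that of KRT8 was 0.06 (SE 0.06, edgeR adjusted p = 0.462). The genes lie side by side on chromosome 12 on opposite strands, and GENCODE release 29 gives them 525 shared exonic bases. Of the 50-base stretches of their transcripts, 31.8% in KRT18 and 32.6% in KRT8 also occur in other annotated genes, most of them outside the deposited table.

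KRT81, a type II keratin of the hair cortex, was at 495, 468 and 465 CPM in DMSO, 589, 595 and 557 CPM at 5 µM and 868, 538 and 509 CPM at 10 µM. Every TP-472 library was above every DMSO library, and the largest value was again that of 10 µM replicate 1. The log2 fold changes of 0.29 at 5 µM (SE 0.17, edgeR adjusted p = 0.354) and 0.42 at 10 µM (SE 0.17, edgeR adjusted p = 0.0821) did not pass the test. Without 10 µM replicate 1 they were 0.29 (SE 0.04, edgeR adjusted p = 1.49e-05) and 0.13 (SE 0.04, edgeR adjusted p = 0.0102), both short of the fold limit. Its near relative KRT86 was at 3.96, 4.47 and 3.83 CPM in DMSO, 3.11, 1.98 and 2.14 CPM at 5 µM and 2.85, 2.50 and 3.65 CPM at 10 µM, with no call (at 5 µM -0.76, and called down without 5 µM replicate 1 at -0.99 or without 10 µM replicate 1 at -0.77), and 35.0% of its 50-base stretches are shared with other genes of the table, mostly KRT81. Of those of KRT81 itself 42.1% are shared in this way, mostly with KRT86. KRT80, a keratin found in many epithelia, was at 332, 331 and 342 CPM in DMSO, 376, 390 and 383 CPM at 5 µM and 285, 318 and 301 CPM at 10 µM. It was thus above DMSO in every 5 µM library and below DMSO in every 10 µM library, with log2 fold changes of 0.19 (SE 0.06, edgeR adjusted p = 0.0919) and -0.15 (SE 0.06, edgeR adjusted p = 0.0997). With all 9 libraries and no offsets, only the step from 5 µM to 10 µM, -0.35 (SE 0.06, edgeR adjusted p = 0.0114), passed the adjusted p, and it did not reach the fold limit. With length and GC offsets the values against DMSO were 0.23 at 5 µM (edgeR adjusted p = 0.00406) and -0.01 at 10 µM (edgeR adjusted p = 0.847). Without 10 µM replicate 1 they were 0.19 (edgeR adjusted p = 0.000239) and -0.11 (edgeR adjusted p = 0.0162). KRT7, of glandular epithelia, was at 32.6, 29.5 and 26.4 CPM in DMSO, 19.4, 22.5 and 23.3 CPM at 5 µM and 28.8, 15 and 17.4 CPM at 10 µM. Its log2 fold change at 10 µM was -0.53 (SE 0.21, edgeR adjusted p = 0.0763), and without 10 µM replicate 1 it was -0.87 (SE 0.11, edgeR adjusted p = 6.3e-06), which passed both limits. At 5 µM KRT7 had a value of -0.44 (SE 0.21, edgeR adjusted p = 0.235), and of -0.44 without that library (SE 0.09, edgeR adjusted p = 0.0016), short of the fold limit.

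KRT6A, KRT6B and KRT6C encode near-identical type II keratins of stressed epithelium, and their sequences are shown because the largest fold change among the called genes that rose, that of KRT6A, depends on telling them apart. Over 1692 coding bases, KRT6A differs from KRT6B at 42 and from KRT6C at 35 positions. The stretch of 60 coding bases within 1 exon that holds the most positions at which KRT6A differs from both others (coding bases 436 to 495) is printed 5′ to 3′ from the minus strand (GRCh38, GENCODE release 29), with those 5 positions in capitals.
KRT6A, chr12:52492694-52492753: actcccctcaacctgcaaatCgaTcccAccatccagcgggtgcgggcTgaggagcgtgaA
KRT6B, chr12:52451584-52451643: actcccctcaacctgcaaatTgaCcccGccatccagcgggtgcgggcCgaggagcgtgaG
KRT6C, chr12:52473243-52473302: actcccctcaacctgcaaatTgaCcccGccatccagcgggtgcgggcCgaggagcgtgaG
KRT6B and KRT6C carry the same letters here, so reads from this stretch separate KRT6A from the others and cannot separate those. Over whole transcripts, 39.1% of the 50-base stretches of KRT6A, 47.1% of KRT6B and 53.6% of KRT6C are shared with other genes of the table.

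KRT6A was at 0.121, 0.124 and 0.307 CPM in DMSO, 2.83, 2.09 and 0.903 CPM at 5 µM and 2.46, 3.69 and 1.69 CPM at 10 µM. Every TP-472 library was above every DMSO library, and the doses overlapped. KRT6A rose to 10.6 times its DMSO level at 5 µM (log2 fold change 3.40, SE 0.57, edgeR adjusted p = 0.00474) and to 14.3 times at 10 µM (3.83, SE 0.57, edgeR adjusted p = 0.000715). KRT6B, the most abundant of the 3, was at 15.5, 15.4 and 14.4 CPM in DMSO, 10.1, 11.6 and 10.1 CPM at 5 µM and 15.5, 12.1 and 13.1 CPM at 10 µM. At 5 µM it lay below every DMSO library, with a log2 fold change of -0.51 (SE 0.12, edgeR adjusted p = 0.0215) that missed the fold limit, and at 10 µM the value was -0.15 (SE 0.12, edgeR adjusted p = 0.341). Without 10 µM replicate 1 the 10 µM value of KRT6B was -0.26 (SE 0.10, edgeR adjusted p = 0.0426), short of the fold limit. KRT6C had 17 counts in DMSO and 0 in the TP-472 libraries and was not tested. The share of KRT6A in the sum of the 3 genes went from 1.21% ± 0.742 in DMSO to 15.1% ± 6.84 at 5 µM and 16.2% ± 6.34 at 10 µM, while the sum itself was 15.4 ± 0.447, 12.5 ± 1.36 and 16.2 ± 1.62 CPM. When the 3 genes were counted as 1, the log2 fold change was -0.30 at 5 µM (SE 0.11, edgeR adjusted p = 0.132) and 0.07 at 10 µM (SE 0.11, edgeR adjusted p = 0.663), so the calls hold only for KRT6A as a separate gene. How RSEM divided shared reads among the 3 cannot be read from the table.

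**Figure D4:**
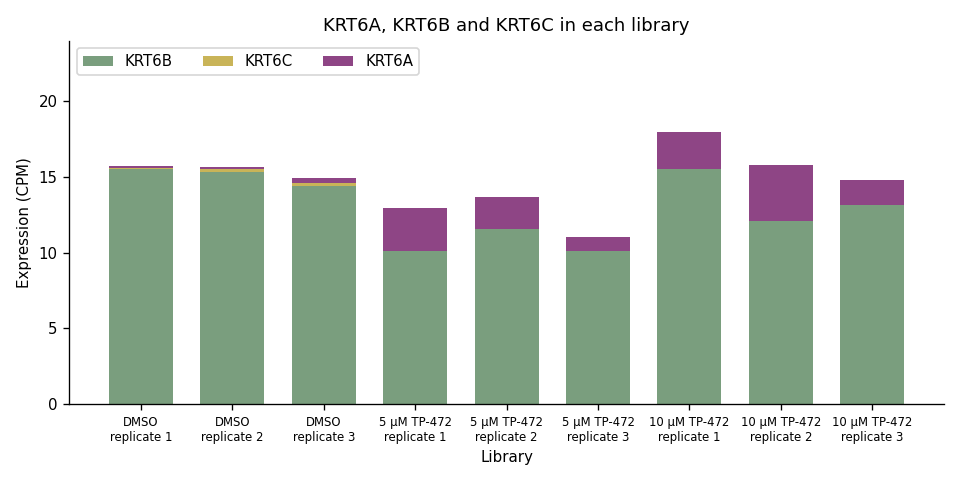
CPM of KRT6B, KRT6C and KRT6A stacked in each of the 9 libraries. The purple part, KRT6A, is at most 0.307 CPM in DMSO and 0.903 to 3.69 CPM with TP-472, on totals between 11.0 and 17.97 CPM.

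The other called keratins were type I genes on chromosome 17. KRT10, the type I keratin of the upper epidermal layers, was at 48.3, 42.5 and 42.3 CPM in DMSO, 54.3, 58.9 and 54.9 CPM at 5 µM and 87.2, 58.8 and 64.4 CPM at 10 µM. All TP-472 libraries exceeded all DMSO libraries, and KRT10 rose at 10 µM by a log2 fold change of 0.66 (SE 0.14, edgeR adjusted p = 0.00446). Without 10 µM replicate 1 the value was 0.47 (SE 0.07, edgeR adjusted p = 3.72e-05), below the fold limit. At 5 µM KRT10 had a value of 0.34 (SE 0.14, edgeR adjusted p = 0.157), and of 0.34 without that library (SE 0.06, edgeR adjusted p = 0.000622), also below the fold limit. Its usual partners KRT1 and KRT2 were not tested, with at most 4 counts in the sum of any group. KRT17, which appears with KRT6 in wounded epidermis, was at 0.161, 0.268 and 0.0946 CPM in DMSO, 0.811, 0.717 and 0.698 CPM at 5 µM and 2.87, 1.35 and 0.591 CPM at 10 µM. The TP-472 groups lay above DMSO and overlapped each other. Of the 50-base stretches of KRT17, 16.0% also occur in other annotated genes, and 1.62% in genes of the deposited table. KRT17 had a log2 fold change of 2.06 at 5 µM (SE 0.63, edgeR adjusted p = 0.0674, called without 10 µM replicate 1 at an adjusted p of 0.0117 and also without 10 µM replicate 3) and rose at 10 µM by 3.17 (SE 0.64, edgeR adjusted p = 0.00386), or by 2.44 without 10 µM replicate 1 (SE 0.62, edgeR adjusted p = 0.00388). KRT16, another partner of KRT6, was at 0.644, 0.885 and 0.828 CPM in DMSO, 0.482, 0.387 and 0.452 CPM at 5 µM and 1.30, 1.06 and 0.795 CPM at 10 µM and was not called.

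KRT34, a type I hair keratin, was at 0.0805, 0.185 and 0.166 CPM in DMSO, 0, 0.0581 and 0.205 CPM at 5 µM and 0.826, 0.769 and 1.41 CPM at 10 µM. The 10 µM libraries lay above all others. KRT34 rose at 10 µM by a log2 fold change of 2.78 against DMSO (SE 0.86, edgeR adjusted p = 0.0316) and of 3.46 against 5 µM (SE 0.90, edgeR adjusted p = 0.044). These calls rest on few counts, since the first was kept in 4 of the 9 fits that leave out 1 library (values 2.46 to 3.00, lost without any 1 of the DMSO replicates, 5 µM replicate 2 or 10 µM replicate 3) and the second in 2 of 9 (2.90 to 4.93, kept without 5 µM replicate 3 or 10 µM replicate 1). KRT13, a keratin of moist stratified epithelia, was at 0.604, 0.432 and 0.284 CPM in DMSO, 0.197, 0.755 and 0.698 CPM at 5 µM and 0, 0 and 0.0204 CPM at 10 µM. It had 63 counts in DMSO, 82 at 5 µM and 1 at 10 µM, a ratio of DMSO to 10 µM of 67.0 (95% interval for counting error only, 11.6 to 2687), and the fall passed both limits against DMSO (edgeR adjusted p = 0.00284) and against 5 µM (edgeR adjusted p = 0.00887). An antisense gene outside the deposited table covers 16.3% of its exonic bases. KRT15, a keratin of basal cells and hair follicle stem cells, was at 16.6, 16.7 and 16.0 CPM in DMSO, 21.3, 21.2 and 19.2 CPM at 5 µM and 16.7, 10.5 and 9.64 CPM at 10 µM. It was not called against DMSO at either dose (0.32 and -0.42), and fell from 5 µM to 10 µM by 0.74 on the log2 scale (SE 0.18, edgeR adjusted p = 0.0329). In the 9 fits that leave out 1 library the value stayed between -1.03 and -0.60, but the adjusted p reached 0.111 and the call was kept in 1 fit only, the one without 10 µM replicate 1, where KRT15 fell by 1.03 from 5 µM to 10 µM (edgeR adjusted p = 8.8e-07) and by 0.71 against DMSO (edgeR adjusted p = 1.04e-05). With length and GC offsets the step from 5 µM to 10 µM was -0.54 (SE 0.22, edgeR adjusted p = 0.128). These offsets took KRT15 at a transcript length of 5237 bases, where KRT14 and KRT16 were at 1662 and 1644. Another transcript of KRT15 was not tried, so this value depends on that choice.

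KRT14 and KRT5, the basal pair, were not called. KRT14 was at 7.31, 7.04 and 6.41 CPM in DMSO, 7.58, 6.39 and 7.47 CPM at 5 µM and 8.76, 7.48 and 5.50 CPM at 10 µM, a log2 fold change of 0.05 at 5 µM and 0.07 at 10 µM (SE 0.17 for each), and 13.0% of its 50-base stretches are shared with other genes of the table. Without 10 µM replicate 1 the 10 µM value of KRT14 was -0.09 (SE 0.16). KRT5 was at 1.11, 0.782 and 0.733 CPM in DMSO, 0.131, 0.620 and 0.616 CPM at 5 µM and 1.76, 0.788 and 0.652 CPM at 10 µM. Its log2 fold change at 10 µM was 0.28 (SE 0.59), and -0.28 without 10 µM replicate 1 (SE 0.61). KRT9, the keratin of palm and sole skin, was at 1.81, 1.77 and 1.42 CPM in DMSO, 1.75, 2.13 and 2.24 CPM at 5 µM and 2.58, 0.769 and 2.67 CPM at 10 µM. The groups of KRT14 and KRT9 overlapped throughout. A further 7 genes were tested and stayed below 1 CPM in every group (DES, PRPH, KRT12, KRT19, KRT23, KRT79 and KRT83), with 0 calls at any comparison. The remaining 35 genes were not tested, and of these 10 were at 0 in every library, while the highest single value was 31 expected counts, for NEFH. With no count, a symbol cannot be told from one expressed below the reach of these libraries.

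By overlap of single libraries, 8 of the 32 tested genes had every 10 µM library above every DMSO library and 10 had every one below, where 23.4% and 26.0% of all genes tested did so. At 5 µM the counts were 9 above and 11 below, against 23.7% and 25.0% of all genes. From 5 µM to 10 µM they were 4 above and 8 below, against 12.1% and 16.2%. Genes below in both comparisons with DMSO were KRT86, LMNB1, LMNB2, NES, SYNM and VIM, and genes above in both were KRT10, KRT17, KRT6A, KRT81, LMNA and NEFL.

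Promoters are printed for 2 genes that rose at 10 µM, KRT10 and KRT34, and for 2 that fell, LMNB1 and NES, to show how the starts of genes of this family differ in their letters. They are RefSeq sequences on GRCh38.p14 and run from 250 bases before to 50 bases after an annotated start, 5′ to 3′ on the strand of the gene. Of the 25 genes with values in every library above, 7 had such a promoter within 100 bases of the start of the GENCODE principal transcript (KRT9, KRT10, KRT34, LMNB1, LMNB2, NES and SYNM). Capitals mark matches to 4 short motifs on either strand, with each overlapping match counted. They are the letters TATAAA of a TATA-type start, the letters GGGCGG to which Sp1 binds, the letters CCAAT read by NF-Y, and the letters TGACTCA of an AP-1 site.
KRT10, chr17:40822565-40822864, minus strand: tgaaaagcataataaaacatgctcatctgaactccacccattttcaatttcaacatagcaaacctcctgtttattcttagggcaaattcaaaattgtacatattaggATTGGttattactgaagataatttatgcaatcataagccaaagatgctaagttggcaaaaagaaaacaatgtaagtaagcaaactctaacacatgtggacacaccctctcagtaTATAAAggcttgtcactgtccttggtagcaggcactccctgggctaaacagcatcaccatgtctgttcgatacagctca
KRT34, chr17:41382257-41382556, minus strand: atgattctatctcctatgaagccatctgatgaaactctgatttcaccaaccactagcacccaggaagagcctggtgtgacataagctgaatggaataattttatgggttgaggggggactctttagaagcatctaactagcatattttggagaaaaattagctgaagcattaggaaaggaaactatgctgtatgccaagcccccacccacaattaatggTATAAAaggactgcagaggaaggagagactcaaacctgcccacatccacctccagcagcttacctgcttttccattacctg
LMNB1, chr5:126776886-126777185, plus strand: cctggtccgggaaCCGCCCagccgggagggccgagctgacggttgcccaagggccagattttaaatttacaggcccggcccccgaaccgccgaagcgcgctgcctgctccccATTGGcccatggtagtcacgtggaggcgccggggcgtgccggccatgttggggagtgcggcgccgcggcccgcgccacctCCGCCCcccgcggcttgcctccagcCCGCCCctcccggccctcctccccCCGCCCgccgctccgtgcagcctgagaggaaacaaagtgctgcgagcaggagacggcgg
NES, chr1:156677358-156677657, minus strand: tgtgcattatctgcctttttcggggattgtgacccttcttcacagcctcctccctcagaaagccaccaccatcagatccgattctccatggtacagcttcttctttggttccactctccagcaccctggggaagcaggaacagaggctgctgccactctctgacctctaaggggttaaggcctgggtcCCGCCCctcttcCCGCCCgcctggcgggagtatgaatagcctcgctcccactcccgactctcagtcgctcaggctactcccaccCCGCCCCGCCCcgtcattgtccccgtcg
KRT10 and KRT34 each hold a TATAAA that begins 29 and 31 bases before the start, and no GGGCGG, and KRT10 holds a CCAAT as well. LMNB1 holds 4 GGGCGG and 1 CCAAT on the reverse strand and NES 4 GGGCGG, and neither holds TATAAA. LMNB2, KRT9 and SYNM, whose promoters are not printed, hold 1, 1 and 4 GGGCGG and no TATAAA, and SYNM also holds 1 CCAAT. GC content was 37.7% and 44.0% in KRT10 and KRT34, and 73.7%, 67.7%, 60.3%, 79.0% and 61.3% in LMNB1, LMNB2, NES, SYNM and KRT9. Of all 35116 promoters in the table, 11.5% hold TATAAA, 45.0% GGGCGG, 34.6% CCAAT and 4.95% the AP-1 letters, which none of the 7 promoters holds. A match is a description of letters and not a measured site.

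Keratin filaments reach the cell surface at desmosomes and hemidesmosomes. Of the 4 hemidesmosome genes, all tested, ITGB4 and ITGA6, the integrin subunits that anchor keratins to the basement membrane through plectin, fell at 10 µM and 0 rose, and the median of the 4 was -0.77 on the log2 scale beside 0.01 for every gene tested. ITGB4 was at 1068 to 1080 CPM in the DMSO libraries, 588 to 625 CPM at 5 µM and 165 to 206 CPM at 10 µM, a log2 fold change of -2.50 at 10 µM (SE 0.09, edgeR adjusted p = 1.16e-07). ITGA6 changed by -1.55 (SE 0.20, edgeR adjusted p = 0.000259), or by -1.32 without 10 µM replicate 1, and COL17A1, a collagen of the same structure, had a value of 0.35 (SE 0.16, edgeR adjusted p = 0.113). Beside these and the next list, 8.57% of all genes tested were called up at 10 µM and 10.5% down. Of 19 desmosome and plakin genes 14 were tested, and at 10 µM DSC3 and PPL rose and PKP3, MACF1 and DSG2 fell, with a median of -0.28. Without 10 µM replicate 1 this median was -0.20, and MACF1 (-0.47) and DSG2 (-0.38) fell short of the fold limit. Of the 9 fits that leave out 1 library, DSC3 and PKP3 kept their calls in 7, MACF1 in 5, PPL in 4 and DSG2 in 2, and no gene was called up without DMSO replicate 1 or without 10 µM replicate 2. The 3 smallest p-values belonged to JUP, or plakoglobin (-0.57, SE 0.09, edgeR adjusted p = 0.000962, short of the fold limit), PKP3, a plakophilin (-0.62, SE 0.12, edgeR adjusted p = 0.00318), and DSC3, a desmocollin (0.79, SE 0.21, edgeR adjusted p = 0.0162). Plectin (PLEC) and desmoplakin (DSP), which tie intermediate filaments to junctions, were not called, with values of -0.29 (SE 0.21) and -0.03 (SE 0.27). For PLEC, 10 µM replicate 1 read 811 CPM and the other 10 µM libraries 1620 and 1627 CPM.

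Of the 17 epithelial markers 7 were tested. At 10 µM GRHL3 rose and CLDN4 fell, where 8.57% of all genes tested were called up and 10.5% down. The median of the 7 was 0.23. This marker median ranged from -0.04 to 0.24 when single libraries were left out, and was 0.05 without 10 µM replicate 1. With all libraries the median of the tested keratins at 10 µM was 0.23 as well, and a relation of the markers to the keratins was not tested. The keratin median was not taken without 10 µM replicate 1. That library was the highest of its group for KRT18, KRT8, KRT81, KRT10 and KRT14, though not for KRT80, KRT6A or KRT34. GRHL3, a transcription factor of epidermal barrier formation, was at 0.906, 0.514 and 0.638 CPM in DMSO and 2.42, 3.08 and 4.22 CPM at 10 µM (log2 fold change 2.23, SE 0.32, edgeR adjusted p = 0.000532). CLDN4, a tight junction claudin, changed by -0.96 (SE 0.18, edgeR adjusted p = 0.00253), and SFN, which encodes stratifin of keratinocytes, by 0.24 (SE 0.15, edgeR adjusted p = 0.237). The summed level of all 17 markers was 83.3 to 83.4 CPM with DMSO, 72.5 to 78.2 CPM at 5 µM and 51.4 to 73.3 CPM at 10 µM. Of 6 tested melanocyte markers 0 were called at 10 µM (median -0.07), with the smallest p-values in TYRP1 (0.86), SOX10 (-0.09) and MITF (-0.13). Of 5 tested stromal and blood cell markers PDGFRA fell (-1.76, edgeR adjusted p = 0.00118) and 0 rose, followed in p-value by PECAM1 (-0.57) and VWF (0.31), neither called. The intermediate filament genes that the rule leaves out, of which GFAP, BFSP1, IFFO1 and IFFO2 were tested, gave 0 calls at 10 µM and values between -0.19 and 0.10 (median 0.04), the smallest p-values being those of IFFO2 (-0.19), IFFO1 (0.05) and BFSP1 (0.03).

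**Figure D5:**
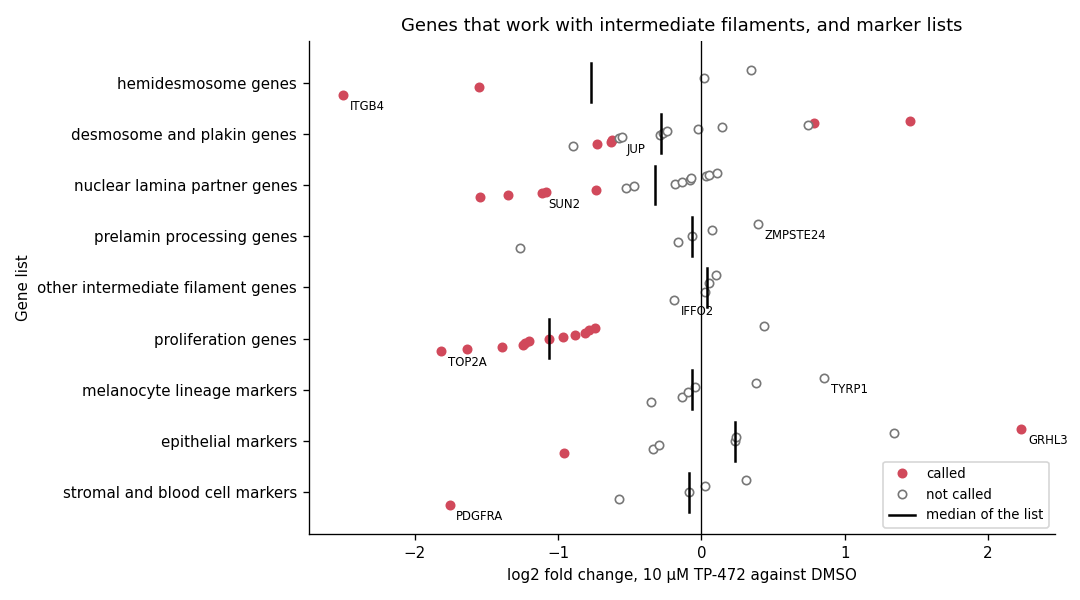
Log2 fold change at 10 µM against DMSO of the tested genes of 9 lists, with filled dots for called genes and a bar at the median of each list. The proliferation genes lie left of 0 apart from PCNA at 0.43, and ITGB4 is the leftmost gene at -2.50.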

How the data were processed

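The authors deposited expected counts per gene symbol for 9 libraries, 3 a group, with replicates not pooled. The submitters' processing notes name RSEM 1.2.15, Bowtie2 2.1.0 and hg38. The sources used here give neither annotation nor filters. The design text names ribosomal depletion and strand-specific libraries, the methods oligo-dT selection. Columns hold 42483091 to 51298130 expected counts, and low genes are limited by counting error.

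Counts were rounded, scaled by TMM (factors 0.957 to 1.03), filtered with filterByExpr (16417 genes left) and fitted over all 9 libraries with the quasi-likelihood test in edgeR 4.0.16 (R 4.3.3). Calls needed an adjusted p under 0.05 and a fold of at least 1.5. The SE is the size of the log2 fold change over the square root of F. Scripts were tested on simulated data. Alternatives were DESeq2 1.42.0, other filters, only 2 groups, no fold limit, length and GC offsets, a replicate block, each library left out and, chosen after seeing the data, near-identical genes summed. Members and lists were chosen with earlier results of these data known. Genes with a mean of 1 CPM in any group or a call were named in every library, those with 5 CPM with fold changes, and of each list the 3 smallest p-values at 10 µM. Transcripts were taken from GENCODE release 29 (all 67 symbols matched), promoters from RefSeq on GRCh38.p14. Python 3.11.15 was used for tables.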

Additional observations from a re-analysis of the deposited data

Results flagged for a closer look

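The effect of TP-472 differed between its doses for 7 of the 32 tested intermediate filament genes, by the test of 10 µM against 5 µM with an edgeR adjusted p under 0.05. Of these 1 was higher and 6 were lower at 10 µM, where the same test gave 2.87% higher and 5.53% lower of all genes. Without 10 µM replicate 1, more genes passed, all lower at 10 µM. They were VIM (-0.28, edgeR adjusted p = 2.19e-06), KRT7 (-0.43, edgeR adjusted p = 0.00864), SYNM (-0.21, edgeR adjusted p = 0.0189) and KRT81 (-0.15, edgeR adjusted p = 0.0111). Of all genes, 1474 were then higher and 2576 lower, against 471 and 908 with all 9 libraries. The values that follow are from all 9 libraries unless a setting is named. On the log2 scale KRT13 differed by -5.8987 (edgeR adjusted p = 0.00887), from 82 counts at 5 µM and 1 at 10 µM. LMNB1 differed by -0.7122 (edgeR adjusted p = 0.000518), LMNB2 by -0.5525 (edgeR adjusted p = 0.00195) and NES by -0.4154 (edgeR adjusted p = 0.0151), and all 3 were lower in every 10 µM library than in every 5 µM library. With length and GC offsets the differences were -0.73 for LMNB1, -0.36 for LMNB2 (edgeR adjusted p = 0.00198) and -0.20 for NES (edgeR adjusted p = 0.0645), so that of NES no longer passed. KRT80 differed by -0.3459 (edgeR adjusted p = 0.0114), with every 5 µM library above DMSO and every 10 µM library below it, and by -0.24 with length and GC offsets (edgeR adjusted p = 0.00452). With these offsets its values against DMSO were 0.23 at 5 µM and -0.01 at 10 µM (edgeR adjusted p = 0.847), so the fall below DMSO was not kept. KRT15 differed by -0.7441 (edgeR adjusted p = 0.0329) and KRT34 by 3.4633 (edgeR adjusted p = 0.044), and these calls were lost in most fits that left out 1 library.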

How the results depend on the processing

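The fits that leave out 1 library gave 2 to 3 genes called up and 1 to 2 down at 5 µM, 4 to 6 up and 6 to 8 down at 10 µM, and 0 to 1 up and 2 to 3 down from 5 µM to 10 µM. At 5 µM the count called down was 2 with DESeq2, with only the 2 groups compared, with length and GC offsets and with these offsets and the replicate block, and 5 with no fold limit. At 10 µM 3 were called up when at least 1 CPM was asked for in 3 libraries. From 5 µM to 10 µM the count called up was 0 with no filter, with at least 1 CPM in 3 libraries and with only the 2 groups compared, and 2 with DESeq2 (KRT16 and KRT34). The count called down was 1 with only the 2 groups compared and 6 with no fold limit. KRT10 at 10 µM fell below the fold limit with length and GC offsets. Counted with its paralogs, KRT6A at 5 µM turned to -0.2979, since KRT6B supplies most of that sum. The median of the desmosome and plakin genes was -0.1531 with length and GC offsets and -0.1538 with the replicate block as well, and -0.3876 to -0.2005 with single libraries left out. Of these genes 1 was called down at 10 µM in place of 3 with length and GC offsets, with only the 2 groups compared, without DMSO replicate 2 and without DMSO replicate 3. The lamina partners ranged from -0.4278 to -0.1988 and the proliferation genes from -1.138 to -1.024 when single libraries were left out. The stromal and blood cell markers had a median of -0.5509 with at least 1 CPM in 3 libraries. Except where a construction is named, the cause of these shifts was not tested.

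The labels do not say whether replicate numbers pair the libraries. Same-numbered libraries correlated at -0.0493 to 0.0322 in their deviations from group means, and differently numbered ones at -0.0327 to 0.0451. No pairing was seen in these values, which cannot show whether libraries were handled together. The replicate block gave 2 up and 1 down at 5 µM, 5 up and 6 down at 10 µM, and 1 up and 3 down from 5 µM to 10 µM, as without it, and 1 desmosome gene called up at 10 µM in place of 2. Of 1477 values of single genes under all alternatives, 1403 kept direction and call, 26 uncalled values took the other sign, 29 lost the call, 18 gained one and 1 called value changed direction.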

Other observations

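Keratin-associated proteins embed the keratin filaments of hair, and their genes lie outside the rule used here. They were looked at after values had been seen. Of 94 KRTAP symbols 72 were at 0 in every library and 2 were tested. KRTAP2-3 was at 0.443, 0.329 and 0.402 CPM in DMSO, 1.49, 1.67 and 2.28 CPM at 5 µM and 5.02, 3.08 and 3.57 CPM at 10 µM, so the 3 groups did not overlap. It rose by 2.20 on the log2 scale at 5 µM (edgeR adjusted p = 0.00174) and by 3.30 at 10 µM (SE 0.31, edgeR adjusted p = 4.08e-05), and by 1.10 from 5 µM to 10 µM (edgeR adjusted p = 0.0384). KRTAP3-1 was at 0.0403, 0.0412 and 0.0236 CPM in DMSO, 0.372, 0.620 and 0.513 CPM at 5 µM and 1.55, 0.0769 and 0.285 CPM at 10 µM. It rose at 10 µM by 4.07 (SE 1.10, edgeR adjusted p = 0.0169), where its highest value was that of 10 µM replicate 1, without which it was not called (2.27, edgeR adjusted p = 0.0692), and had a value of 3.73 at 5 µM (edgeR adjusted p = 0.0592). With at most 0.0412 CPM in DMSO, KRTAP3-1 passed the low-count filter through its TP-472 libraries alone.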
